A study of Homo sapiens with 36 samples.

Results

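Collagens and the proteins that fold, cross-link and surround them in the extracellular matrix were followed by microarray in U2OS ER-HA-E2F1 cells after knockdown of NFYB and activation of E2F1. The list held 39 genes: 6 fibrillar collagens, 9 network and other collagens, 8 genes of collagen maturation, 6 glycoproteins and laminins, 5 matricellular proteins, and 5 proteoglycan genes and link protein. For each gene all probe sets annotated to it alone were collected, and the brightest one, by its log2 signal averaged across the 36 arrays, was used. A probe set of its own was found for 38 of the 39 genes, out of 11963 genes with such a probe set. COL12A1 had none and was not analysed here. The 38 genes had 95 probe sets, and 28 of them had more than 1.

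U2OS is a human osteosarcoma line, and in this derivative all cells carry an HA-tagged E2F1 fused to the ligand-binding domain of the estrogen receptor, which 4-hydroxytamoxifen (OHT) brings into the nucleus. The NFYB arm comprised an Ambion and a Dharmacon siRNA against NFYB, and the control arm a Dharmacon and a Sigma-Aldrich negative control siRNA. Every culture, control arm included, was transfected 18 h before 24 h of serum starvation, and then either harvested (0 h) or kept for 4 or 8 h in medium without serum that contained 80 nM OHT. Each siRNA and time had 3 arrays, called biological replicates in the labels, so each arm and time had 6. Since no array at 4 or 8 h lacked OHT, the effects of E2F1, of the drug and of longer starvation cannot be told apart.

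Fibrillar collagens form the tensile fibres of the matrix, while network collagens build basement membranes and beaded filaments. Procollagen chains are hydroxylated by prolyl and lysyl hydroxylases in the endoplasmic reticulum, where the chaperone HSP47, the product of SERPINH1, holds the triple helix. Lysyl oxidases then cross-link the secreted fibres. Osteoblasts, the bone-forming cells from which osteosarcoma is derived, are known for abundant secretion of type I collagen. NF-Y, of which NFYB is a subunit, binds the CCAAT box, a short element that lies near the start of many genes.

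The bases before the start were examined first, because the box bound by NF-Y can be read there. RefSeq promoter windows (build GRCh38.p14, the 250 bases before each start) were found for 30 of the 39 genes, and some genes had several starts, which gave 34 windows. COL1A1, COL1A2, COL3A1, COL5A2, COL6A1, COL8A1, LOXL2, LUM and DCN had no entry. The letters CCAAT were searched on both strands and were present in 10 of the 34 windows (29.4%), against 32% of all 35116 windows. The E2F elements TTTCCCGC, TTTGGCGC, TTTCGCGC and TTTGCCGC, on both strands, were present in 0 of the 34 windows, against 2.79% of all. TATAAA on the gene strand was present in 4 windows (11.8%, against 6.8% of all), those of COL6A2, P4HA1, THBS2 and POSTN. No motif contains another, and a match is a description of the window only.

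Among the 7 genes later found lower with NFYB siRNA, 5 had a window and 2 of these held a CCAAT box, SERPINH1 and LOX. SERPINH1 has 2 starts and LOX 3, with a box before 1 start of each. This count per gene cannot be set against the 32% of all windows, and the share over all genes was not counted. The 120 bases before the outermost start of each of the 5 are shown, gene strand, with motif letters in capitals: SERPINH1 (chr11:75562133-75562252, plus strand), LOX (chr5:122078260-122078379, minus strand), LOXL1 (chr15:73926342-73926461, plus strand), FBN1 (chr15:48644971-48645090, minus strand) and HAPLN1 (chr5:83720856-83720975, minus strand). The box of SERPINH1 lay 27 bases before an inner start, so those 29 bases are given on their own (chr11:75562434-75562462).
SERPINH1: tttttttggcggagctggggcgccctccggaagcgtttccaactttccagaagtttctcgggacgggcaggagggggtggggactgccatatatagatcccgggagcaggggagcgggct
SERPINH1 box: cagagcctacaaATTGGagtcctcggcac
LOX: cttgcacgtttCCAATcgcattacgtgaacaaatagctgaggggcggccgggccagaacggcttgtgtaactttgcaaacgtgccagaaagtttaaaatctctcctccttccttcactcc
LOXL1: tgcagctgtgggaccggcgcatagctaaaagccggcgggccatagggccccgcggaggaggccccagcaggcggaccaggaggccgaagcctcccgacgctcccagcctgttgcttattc
FBN1: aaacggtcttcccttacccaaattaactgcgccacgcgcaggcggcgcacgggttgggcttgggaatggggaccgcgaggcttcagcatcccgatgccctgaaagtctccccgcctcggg
HAPLN1: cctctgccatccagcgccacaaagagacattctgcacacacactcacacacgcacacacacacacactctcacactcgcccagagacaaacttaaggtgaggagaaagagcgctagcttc
In SERPINH1 the box reads ATTGG on the gene strand, while in LOX it reads CCAAT, 109 bases before the outermost of 3 starts. LOXL1, FBN1 and HAPLN1 showed none of the letters searched in this window.

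The sites of 3 further genes and the promoter of COL15A1, which had the greatest increase with OHT, are shown for comparison. COL4A1 (minus strand) and COL4A2 (plus strand) are neighbours transcribed away from each other, and their windows held 1 and the same box, at chr13:110307167-110307195, which lay 26 bases before the start of COL4A1 and 105 bases before that of COL4A2. PLOD2 (chr3:146161245-146161273, minus strand) held a box 77 bases before its start.
COL4A1: cagcgccaacaaATTGGggagctcggccc
COL4A2: gggccgagctccCCAATttgttggcgctg
PLOD2: gtcagccggcggCCAATagccagggcgcg
COL15A1: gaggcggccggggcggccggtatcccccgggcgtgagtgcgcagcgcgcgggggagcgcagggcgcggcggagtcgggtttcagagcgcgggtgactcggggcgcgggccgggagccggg
The COL15A1 stretch (chr9:98943787-98943906, plus strand) was 82.5% G and C, against 53.3% in HAPLN1, and held none of the motifs. The other boxes were in COL11A1, P4HA2, FN1, FBN2 and THBS1.

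The data were linear MAS5 signals, compared on the log2 scale. Over all probe sets the arrays of a condition correlated at r = 0.951 to 0.962, pairs from unlike conditions reached 0.959, and array medians lay between 101 and 120. The knockdown was checked on NFYB itself, whose median signal was 66.8, 118 and 117 at 0, 4 and 8 h in NFYB siRNA cells, against 192, 446 and 654 in control siRNA cells, with no overlap at any time. Of 8 mesenchymal and osteoblast markers, VIM, CDH2, CDH11, SPP1 and ALPL lay in the upper 60% of probe sets by signal, whereas RUNX2, IBSP and TWIST1 lay below. The summed signal of 6 leukocyte markers stayed between 63.0 and 172 over all 36 arrays, and that of 7 endothelial markers between 63.7 and 202. The sum of 8 epithelial markers, of which KRT18, KRT8, EPCAM and KRT7 lay in the upper 60%, was 6386 to 11780 in NFYB siRNA cells at 8 h, against 6044 to 8914 in control siRNA cells at 8 h. It was 9843 to 16760 in NFYB siRNA cells at 0 h, against 8211 to 13660 in control siRNA cells at 0 h, and its part in the changes of matrix genes was not tested. KRT18 weighs most in this linear sum (mean log2 signal 12.9, against 9.93 for KRT8). At 8 h KRT18 was at 0.36, KRT8 at -0.64 and CLDN4 at -0.91 with NFYB siRNA, on the log2 scale, and none passed (limma adjusted p = 0.241, 0.157 and 0.315).

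Most matrix genes had a bright probe set in these cells. The brightest probe set of each gene was ranked among all probe sets, which raises the rank of genes with several. By mean signal 30 of the 38 lay in the upper 60% of all probe sets, and SPARC, FN1, COL6A3, COL4A2, COL6A1, PLOD2, THBS1, COL4A1, P4HA2, COL1A1 and SERPINH1 stood above the 90th percentile. The other 8 were dim: COL1A2, COL8A1, COL15A1, LAMA4, THBS2, POSTN, VCAN and BGN. COL1A2, the partner chain of COL1A1 in type I collagen, had a median signal of 19.1 in NFYB siRNA cells and 34.0 in control siRNA cells at 8 h. Changes of such dim probe sets are measured with wide errors, and no detection calls were used here.

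A small set of matrix genes was lower with NFYB siRNA than with control siRNA. With NFYB siRNA 7 of 38 genes were lower and 0 higher at 0 h (18.4%, against 4.34% of all genes in either direction), 6 lower and 0 higher at 4 h (15.8%, against 3.59%), and 5 lower and 1 higher at 8 h (15.8%, against 5.28%), by limma with Benjamini-Hochberg adjustment over 22215 probe sets and an adjusted p under 0.05. Of all genes, 2.37%, 1.77% and 2.57% were lower at 0, 4 and 8 h. COL3A1, COL5A2, SERPINH1, LOX and HAPLN1 were lower at all 3 times, LOXL1 at 0 and 4 h, and FBN1 at 0 h. The median log2 difference over the 38 genes was -0.17, -0.19 and -0.20 at 0, 4 and 8 h, against -0.0022, -0.0026 and -0.014 over all genes. Signals of all 6 NFYB siRNA arrays lay below all 6 control siRNA arrays for 4, 3 and 5 genes at 0, 4 and 8 h, against 1.75%, 1.29% and 1.98% of all genes. The 5 genes lower at all times also belong to the study's own list of genes changed at 8 h, which was chosen on these arrays. Their 8 h result is therefore not independent of that choice. The matrix genes were also chosen with earlier results of these data known, so the shares at 0, 4 and 8 h are not independent of these data. In bulk RNA, fewer cells that express a gene and less RNA per cell cannot be told apart.

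**Figure D1:**
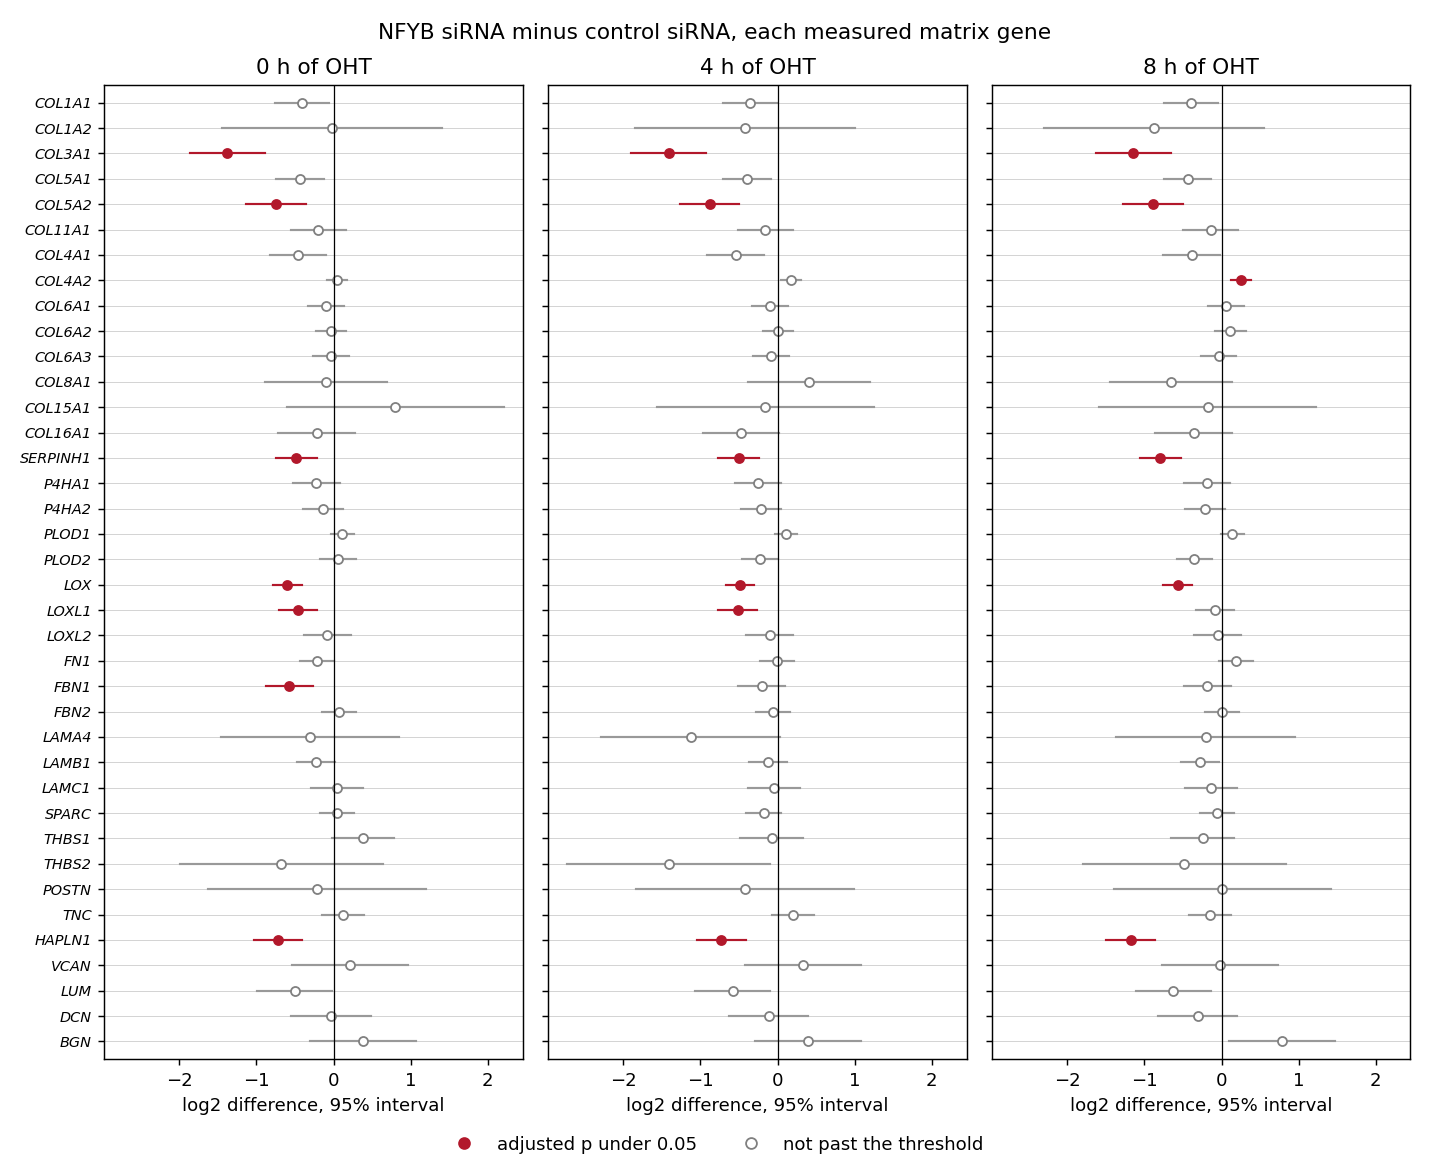
Log2 difference of NFYB siRNA minus control siRNA (x axis) for each of the 38 measured genes (rows), at 0, 4 and 8 h of OHT. Points are limma estimates from 6 arrays per arm and bars their 95% intervals; filled points passed an adjusted p of 0.05, and COL3A1, COL5A2, SERPINH1, LOX and HAPLN1 are filled left of 0 at all 3 times.

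Of the fibrillar collagens, COL3A1 and COL5A2 fell. COL3A1 encodes the chain of type III collagen. Its lowest, median and highest signals at 0 h were 124, 191 and 286 in NFYB siRNA cells, against 419, 476 and 550 in control siRNA cells, and at 8 h 80.5, 122 and 187 in NFYB siRNA cells, against 202, 262 and 320 in control siRNA cells. The groups did not overlap at 0, 4 or 8 h. The log2 difference was -1.38 ± 0.24, -1.41 ± 0.24 and -1.14 ± 0.24 at 0, 4 and 8 h (SE, n = 6 arrays per arm, limma adjusted p = 0.000254, 0.000245 and 0.00264), the greatest decrease of the 38 genes at 0 and 4 h. Of its 3 further probe sets, one gave -1.31, -1.38 and -0.98 and passed at each time, while the other two, which were dimmer, did not pass and one of them was at 1.52 at 0 h. As the mean of all its probe sets COL3A1 was at -0.56, -0.83 and -0.97 and did not pass (adjusted p = 0.453, 0.207 and 0.102).

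COL5A2, a chain of type V collagen that sets fibril diameter, followed. At 8 h its lowest, median and highest signals were 235, 316 and 492 in NFYB siRNA cells, against 499, 611 and 758 in control siRNA cells, and every NFYB siRNA array was below every control siRNA array. The log2 difference was -0.75 ± 0.19, -0.88 ± 0.19 and -0.89 ± 0.19 at 0, 4 and 8 h (limma adjusted p = 0.0178, 0.00476 and 0.00332, n = 6 per arm), and its other probe set gave -0.71, -0.93 and -0.83. The other fibrillar collagens did not pass the test. COL1A1 differed by -0.41, -0.35 and -0.40 and COL5A1 by -0.44, -0.40 and -0.44 at 0, 4 and 8 h, with adjusted p at 8 h of 0.211 and 0.0918, while COL11A1 was at -0.14 at 8 h with a 95% interval from -0.50 to 0.22.

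Among the genes of collagen maturation SERPINH1, LOX and LOXL1 fell. SERPINH1, the collagen chaperone HSP47, had signals of 603, 701 and 1023 (lowest, median and highest) in NFYB siRNA cells at 8 h, against 1143, 1299 and 1437 in control siRNA cells, with no overlap. Its log2 difference was -0.48 ± 0.13, -0.50 ± 0.13 and -0.80 ± 0.13 at 0, 4 and 8 h (limma adjusted p = 0.0271, 0.0247 and 0.000131, n = 6 per arm). The 0 h and 4 h results were lost when any of 5 and 4 single arrays were left out, or with the Ambion NFYB siRNA alone (-0.19 and -0.22), whereas the 8 h result passed under every alternative run. It has 1 probe set on the array.

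LOX, which encodes lysyl oxidase, had signals of 341, 415 and 448 in NFYB siRNA cells at 8 h, against 515, 601 and 699 in control siRNA cells. At 0 h they were 234, 312 and 332 in NFYB siRNA cells, against 404, 452 and 469 in control siRNA cells. The groups were apart at 0, 4 and 8 h, with log2 differences of -0.60 ± 0.09, -0.49 ± 0.09 and -0.57 ± 0.09 (limma adjusted p = 3.56e-05, 0.000799 and 8.22e-05, n = 6 per arm), and a further probe set gave -0.53, -0.53 and -0.56. The third, dimmer probe set gave -1.14, -0.15 and -0.46 and did not pass, and as the mean of all probe sets LOX passed at 0 h (adjusted p = 0.0099) but not at 4 or 8 h (0.28 and 0.0872). LOXL1, a lysyl oxidase-like enzyme of elastic fibres, was at -0.46 and -0.52 at 0 and 4 h (limma adjusted p = 0.0244 and 0.0115) and at -0.09 at 8 h (adjusted p = 0.813). With siRNA as a random block the 0 h difference of LOXL1 no longer passed (adjusted p = 0.0604).

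PLOD2, the lysyl hydroxylase of collagen telopeptides, was at -0.35 at 8 h and did not pass (limma adjusted p = 0.0694), although its other probe set did (-0.30, adjusted p = 0.0172). Its signals at 8 h were 2217, 2594 and 3447 in NFYB siRNA cells, against 3023, 3465 and 3806 in control siRNA cells, and 4 of the 6 NFYB siRNA arrays were below all control siRNA arrays. The prolyl hydroxylase subunits P4HA1 and P4HA2, the lysyl hydroxylase PLOD1 and the lysyl oxidase-like enzyme LOXL2 lay between -0.21 and 0.14 at 8 h, and none passed at any time.

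HAPLN1, the link protein that fastens proteoglycans to hyaluronan, had the greatest decrease at 8 h. Its signals were 366, 424 and 544 in NFYB siRNA cells, against 610, 1016 and 1247 in control siRNA cells, and the groups did not overlap. The log2 difference was -0.72 ± 0.16, -0.73 ± 0.16 and -1.18 ± 0.16 at 0, 4 and 8 h (limma adjusted p = 0.00405, 0.00429 and 3.8e-06, n = 6 per arm), and its other probe set gave -0.64, -0.74 and -0.95. Among the small leucine-rich proteoglycans, LUM differed by -0.51, -0.58 and -0.63 without passing (adjusted p = 0.298, 0.224 and 0.139), DCN was at -0.31 at 8 h, and BGN, which was dim, at 0.79 (adjusted p = 0.206). VCAN, a large hyaluronan-binding proteoglycan, was dim and at -0.02.

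**Figure D2:**
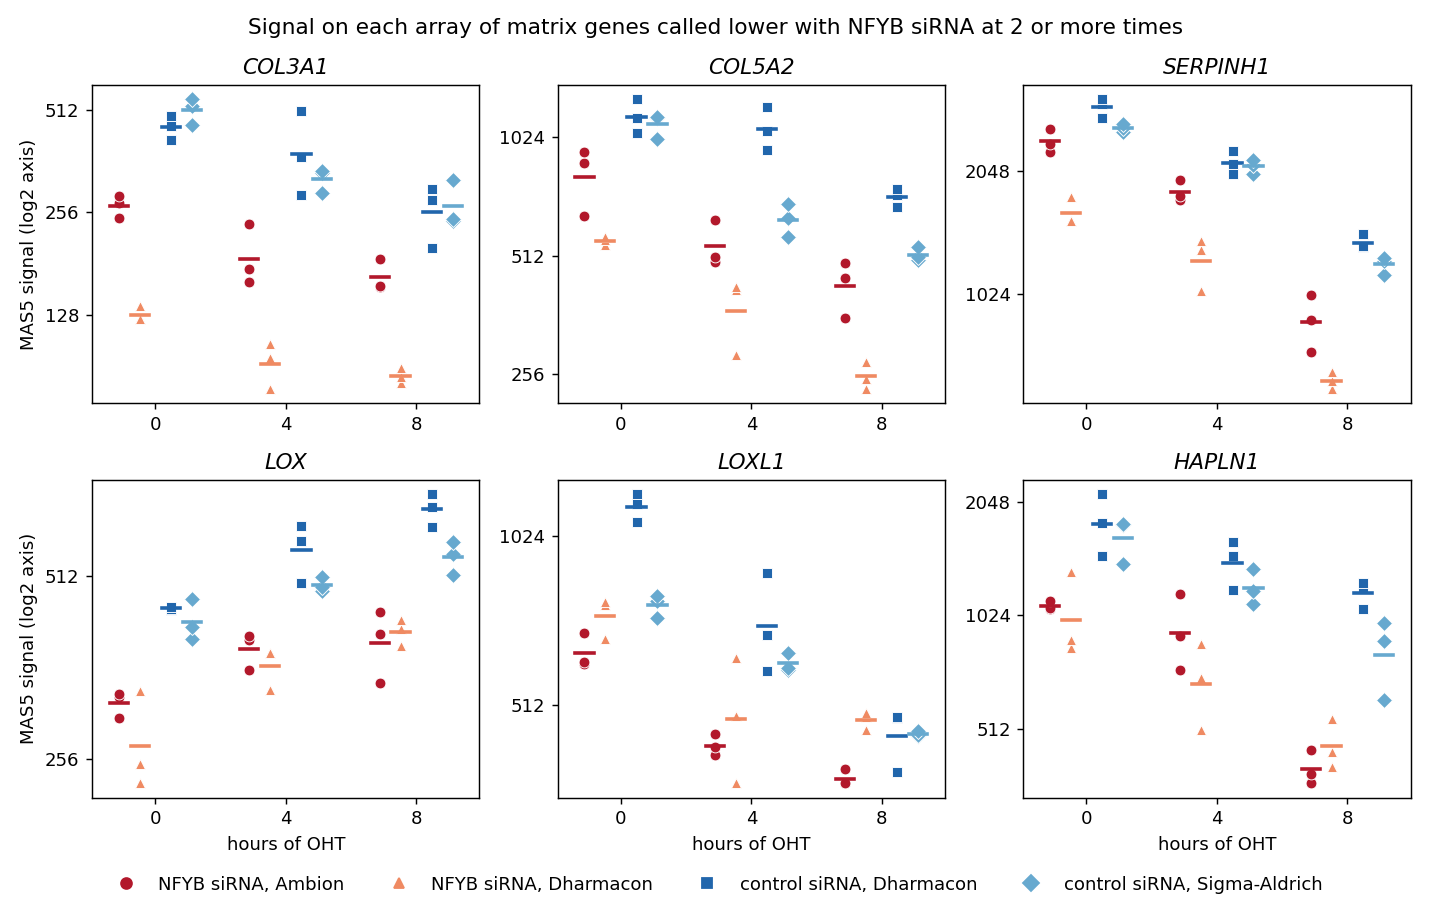
MAS5 signal (log2 axis) on each array of the 6 genes that were lower with NFYB siRNA at 2 or more times, by hours of OHT, with a point per array (n = 3 per siRNA and time) and a line at the geometric mean. NFYB siRNA arrays (circles, Ambion; triangles, Dharmacon) stand left of control siRNA arrays (squares, Dharmacon; diamonds, Sigma-Aldrich), and those of COL3A1 lie at 80.5 to 187 against 202 to 320 at 8 h.

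Of the 6 glycoproteins and laminins and the 5 matricellular proteins, 1 passed between arms, FBN1 at 0 h. FBN1, which encodes fibrillin of the microfibrils, had signals of 121, 147 and 198 in NFYB siRNA cells at 0 h, against 178, 219 and 261 in control siRNA cells, a log2 difference of -0.57 ± 0.15 (limma adjusted p = 0.0216, n = 6 per arm). It was at -0.20 at 4 h and -0.18 at 8 h, and the 0 h result did not pass with siRNA as a random block (adjusted p = 0.0686) or as the mean of all probe sets (0.344). FN1, fibronectin, was at -0.21, -0.004 and 0.19 at 0, 4 and 8 h, and SPARC, a collagen-binding protein of bone, at 0.04, -0.18 and -0.06. TNC, THBS1, FBN2, LAMB1 and LAMC1 did not pass at any time, with the lowest adjusted p at 0.225 for LAMB1 at 8 h.

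The basement membrane chains COL4A1 and COL4A2 start from neighbouring positions but were estimated on opposite sides of 0. COL4A2 had signals of 2747, 2933 and 3339 in NFYB siRNA cells at 8 h, against 2103, 2509 and 2993 in control siRNA cells, with overlap, and was the only one of the 38 genes that rose (0.25 ± 0.06, limma adjusted p = 0.0144, n = 6 per arm). Its other probe set was at -0.21 (adjusted p = 0.564), and the rise did not pass with siRNA as a random block (adjusted p = 0.0566). COL4A1 was at -0.46, -0.54 and -0.39 at 0, 4 and 8 h and did not pass (adjusted p = 0.175, 0.105 and 0.263). Its differences from the Dharmacon control siRNA at 8 h were -0.69 with the Ambion and -0.90 with the Dharmacon NFYB siRNA, and those from the Sigma-Aldrich control siRNA 0.12 and -0.08. The COL6A1, COL6A2 and COL6A3 chains of type VI collagen lay between -0.10 and 0.11 at all times.

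The siRNAs of 1 arm differed from each other in many matrix genes. Over the mean of the 3 times, 16 genes were higher and 3 lower with the Ambion than with the Dharmacon NFYB siRNA (50% of 38, against 20.9% of all genes, limma on 12 groups of 3), and 16 were higher and 7 lower with the Dharmacon than with the Sigma-Aldrich control siRNA (60.5%, against 30.7%). COL4A1 was 0.82 ± 0.04 higher and LUM 0.81 ± 0.12 higher with the Dharmacon control siRNA, and P4HA1 -0.53 ± 0.08 (limma adjusted p = 1.77e-15, 4.85e-06 and 4.58e-06, n = 3 arrays per siRNA and time). COL6A1 was 0.50 ± 0.04 and COL11A1 0.72 ± 0.06 higher with the Ambion NFYB siRNA (adjusted p = 1.38e-11 and 3.58e-11). The 6 arrays of an arm are therefore not alike, and the p-values between arms treat them as if they were.

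Each of the 4 pairs of an NFYB and a control siRNA was then compared for the genes that fell. COL3A1, COL5A2, SERPINH1, LOX and HAPLN1 were below 0 in all 4 pairs at all 3 times. The pairs reuse the arrays on which these genes were called, so their sign is not independent of that call. COL5A1, which did not pass between arms, was also below 0 in all 4 pairs at all 3 times, and all genes were not counted. The size of the decrease differed by siRNA for COL3A1, COL5A2 and SERPINH1. COL3A1 was at -0.66 with the Ambion and -1.63 with the Dharmacon NFYB siRNA at 8 h, against both controls, COL5A2 at -0.51 and -1.27, and SERPINH1 at -0.56 and -1.03. The Ambion minus Dharmacon difference passed at 0, 4 and 8 h for COL3A1 (1.07, 1.02 and 0.96), COL5A2 (0.54, 0.54 and 0.77) and SERPINH1 (0.58, 0.56 and 0.47), with limma adjusted p from 5.2e-05 to 0.0111. NFYB itself was 0.80 ± 0.20 higher with the Ambion than with the Dharmacon siRNA at 8 h (adjusted p = 0.00732) and 0.13 ± 0.20 higher at 0 h (adjusted p = 0.802).

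For LOX and HAPLN1 no difference between the NFYB siRNAs passed the test. LOX was at -0.60 with the Ambion and -0.54 with the Dharmacon siRNA at 8 h, a difference of -0.06 ± 0.11, and HAPLN1 at -1.28 and -1.08, a difference of -0.20 ± 0.19 (limma adjusted p = 0.825 and 0.619, n = 3 arrays each). LOXL1 was at -0.26 with the Ambion and 0.09 with the Dharmacon siRNA at 8 h, so only 2 of its 4 pairs were below 0 there.

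**Figure D3:**
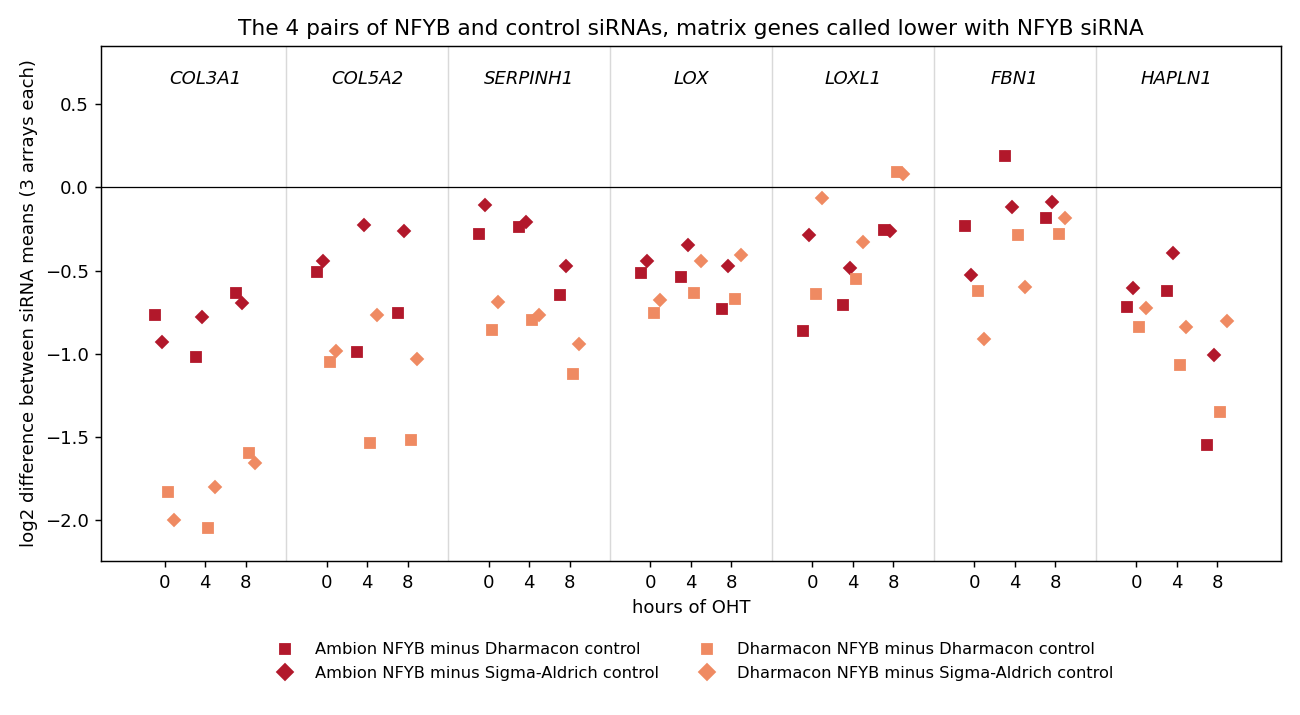
Log2 difference between siRNA means (y axis, 3 arrays each) for the 4 pairs of an NFYB and a control siRNA, at 0, 4 and 8 h of OHT, for the 7 genes lower with NFYB siRNA at any time. COL3A1 lies at -0.63 and -0.69 with the Ambion and at -1.60 and -1.66 with the Dharmacon NFYB siRNA at 8 h.

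Over the hours of OHT more matrix genes changed, most of them to lower levels. In control siRNA cells 5 of 38 genes were higher and 18 lower at 8 h than at 0 h (60.5%, against 55.3% of all genes), and 4 were higher and 9 lower at 4 h (34.2%, against 44.8%). Of all genes, 34.3% were lower at 8 h and 27.8% at 4 h. The median log2 difference over the 38 genes at 8 h was -0.40, against -0.16 over all genes. In NFYB siRNA cells 3 genes were higher and 18 lower at 8 h (55.3%, against 53.4%), with a median of -0.42, against -0.18, and at 4 h 2 were higher and 13 lower (39.5%, against 41.4%). Of all genes in this arm, 33.7% were lower at 8 h and 25.5% at 4 h. The arms share no arrays: 16 genes were lower in both arms and 3 higher in both. Thus 19 of the 23 genes called in the control arm and 19 of the 21 called in the NFYB arm were shared. The overlap over all genes, of which 55.3% and 53.4% were called, was not counted. The overlap is therefore not read as particular to matrix genes.

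**Figure D4:**
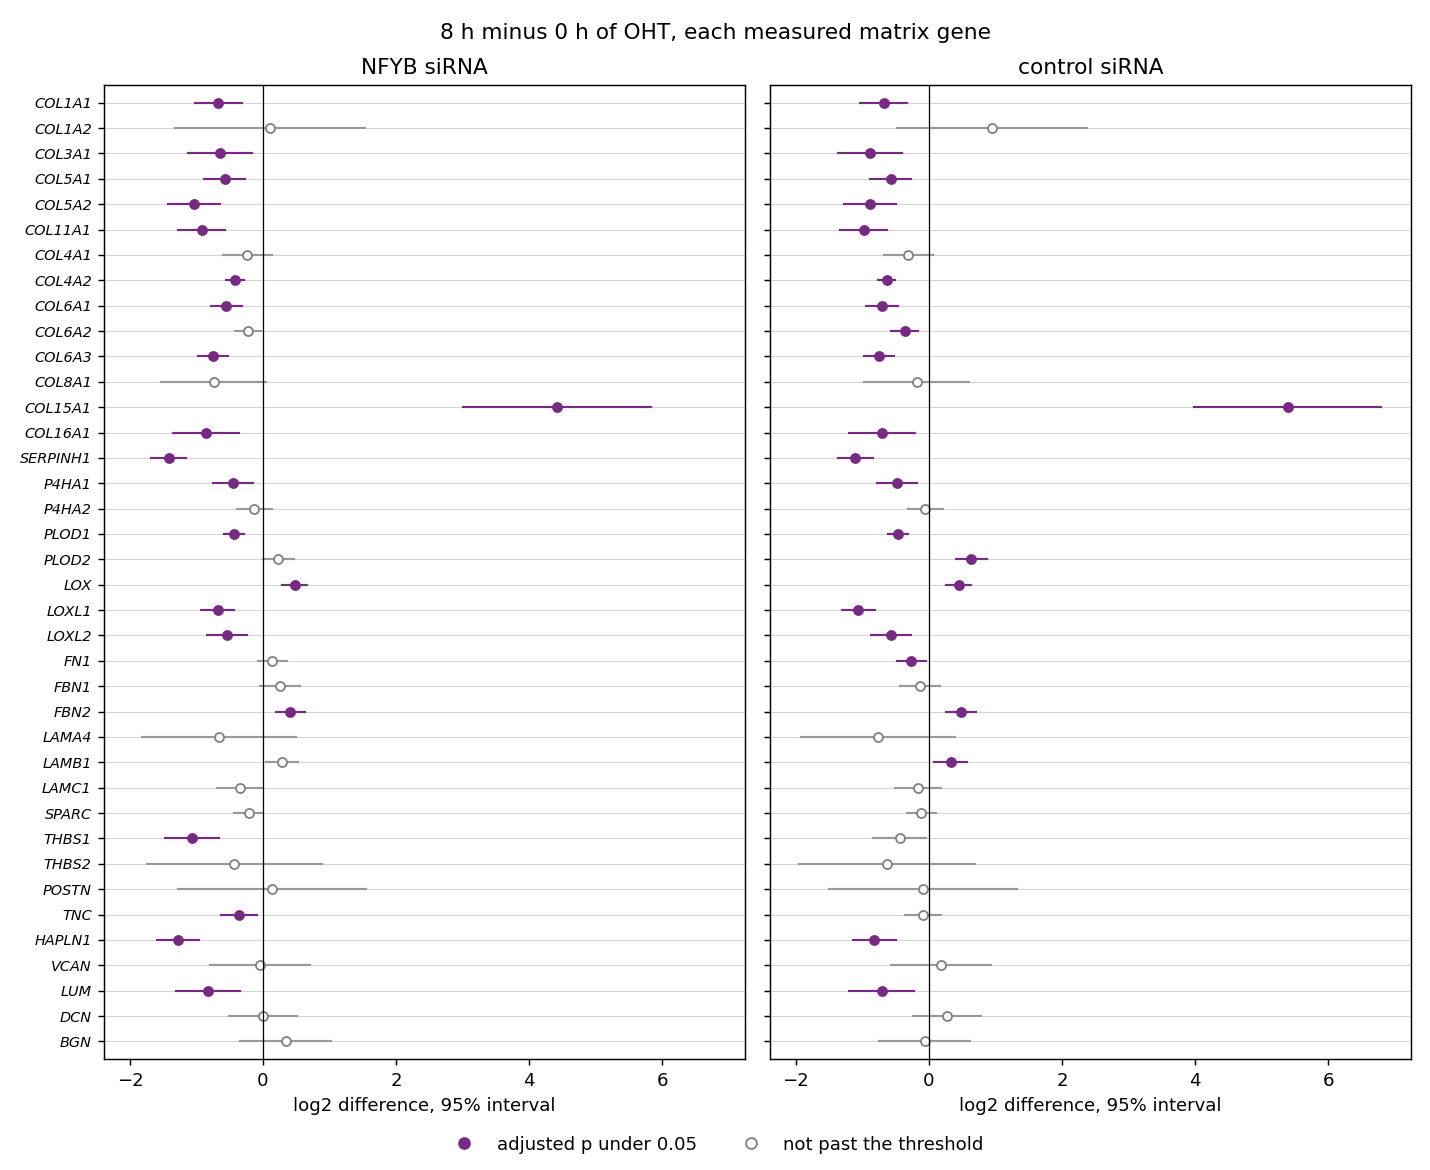
Log2 difference of 8 h minus 0 h of OHT (x axis) for each of the 38 genes (rows), in NFYB siRNA cells (left) and control siRNA cells (right). Points are limma estimates from 6 arrays per time and bars their 95% intervals; filled points passed an adjusted p of 0.05, and COL15A1 stands apart at 4.42 and 5.39.

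Of the 6 fibrillar collagens, 5 fell at 8 h of OHT, against 34.3% of all genes lower in control siRNA cells. In control siRNA cells COL11A1 fell by 0.98 ± 0.18, COL5A2 by 0.89 ± 0.19, COL3A1 by 0.88 ± 0.24, COL1A1 by 0.68 ± 0.17 and COL5A1 by 0.57 ± 0.15 on the log2 scale (limma adjusted p from 9.97e-06 to 0.002, n = 6 arrays per time). As the mean of all probe sets, COL1A1 and COL3A1 did not pass there (adjusted p = 0.0704 and 0.337). COL1A2, which was dim, was at 0.95 ± 0.70 (adjusted p = 0.281), with 5 of 6 arrays at 8 h above every array at 0 h. COL1A1, the main chain of bone collagen, had signals of 1265, 1733 and 2213 at 8 h, against 2219, 2704 and 3525 at 0 h. The groups did not overlap. COL11A1 had 213, 265 and 324 at 8 h, against 427, 509 and 653 at 0 h, again without overlap, and at 4 h it was already at 325, 355 and 385. In control siRNA cells 11 of the 38 genes had every array at 8 h below every array at 0 h, against 23.7% of all genes.

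Of the 8 measured network and other collagens, 5 were lower and 1 higher in control siRNA cells. Of all genes, 34.3% were lower there and 55.3% changed in either direction. COL4A2 fell by 0.63 ± 0.06, COL6A1 by 0.71 ± 0.12, COL6A2 by 0.37 ± 0.10, COL6A3 by 0.75 ± 0.11 and COL16A1 by 0.71 ± 0.25 on the log2 scale in control siRNA cells. COL6A3 had signals of 2560, 2967 and 3659 at 8 h, against 4736, 4977 and 5499 at 0 h. Both groups were apart. In NFYB siRNA cells it fell by 0.75 ± 0.11. COL4A1 was at -0.31 and COL8A1, which was dim, at -0.18, and neither passed (adjusted p = 0.16 and 0.742). When all probe sets of a gene were averaged, COL6A1 did not pass at 8 h in either arm (0.06 in NFYB siRNA cells and -0.06 in control siRNA cells).

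COL15A1, a basement membrane collagen that carries glycosaminoglycan chains, was the one that rose. In NFYB siRNA cells its lowest, median and highest signals were 0.65, 10.3 and 23.2 at 0 h, 32.9, 47.4 and 66.9 at 4 h, and 106, 159 and 195 at 8 h. In control siRNA cells they were 0.707, 8.81 and 21.9 at 0 h, 28.0, 56.4 and 81.4 at 4 h, and 147, 168 and 204 at 8 h. The 3 times did not overlap in either arm. The fitted log2 difference between 8 h and 0 h was 4.42 ± 0.69 in NFYB siRNA cells and 5.39 ± 0.69 in control siRNA cells (limma adjusted p = 1.17e-06 and 2.13e-08), but it rests on 0 h signals among the dimmest on the array, and with 16 added to every signal it was 2.695 and 2.935. At 0 h the control siRNAs differed by 4.44 ± 0.52 (Dharmacon minus Sigma-Aldrich), whereas at 8 h they differed by 0.16 ± 0.52.

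Collagen maturation genes moved in both directions. SERPINH1 had signals of 1143, 1299 and 1437 at 8 h, against 2553, 2720 and 3074 at 0 h in control siRNA cells, and fell by 1.10 ± 0.13 there and by 1.42 ± 0.13 in NFYB siRNA cells on the log2 scale (limma adjusted p = 3.47e-09 and 9.04e-12). LOXL1 fell by 1.06 ± 0.12 in control siRNA cells, the second greatest decrease of the 38 genes, and by 0.68 ± 0.12 in NFYB siRNA cells. LOXL2 fell by 0.57, P4HA1 by 0.48 and PLOD1 by 0.47 in control siRNA cells, but LOXL2 was at 0.16 there as the mean of all its probe sets. LOX and PLOD2 rose instead: LOX by 0.45 ± 0.09 and PLOD2 by 0.64 ± 0.11 (adjusted p = 6.29e-05 and 9.63e-06). LOX thus went up with OHT and was lower with NFYB siRNA at each time, and its 8 h rise was 0.48 ± 0.09 in NFYB siRNA cells. For PLOD2 that rise was 0.23 ± 0.11 and did not pass (adjusted p = 0.1).

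The glycoproteins split as well. FBN2, a fibrillin, had signals of 1248, 1452 and 1620 at 8 h, against 906, 1054 and 1104 at 0 h in control siRNA cells, and rose by 0.48 ± 0.11. LAMB1, a laminin chain, rose by 0.33 ± 0.12 (limma adjusted p = 0.0238), FN1 fell by 0.26 ± 0.11 (adjusted p = 0.0388), and the FBN1 difference was -0.14. In NFYB siRNA cells FBN2 rose by 0.41 ± 0.11, whereas LAMB1 and FN1 were at 0.28 and 0.14 and did not pass. HAPLN1 fell by 0.82 ± 0.16 and LUM by 0.71 ± 0.24 in control siRNA cells, and by 1.27 ± 0.16 and 0.83 ± 0.24 in NFYB siRNA cells.

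Of the matricellular proteins THBS1, thrombospondin, had the largest fall in NFYB siRNA cells. It fell by 1.07 ± 0.20 in NFYB siRNA cells (limma adjusted p = 2.07e-05), with signals of 1244, 1925 and 3029 at 8 h, against 3036, 3840 and 5921 at 0 h, but with the Ambion NFYB siRNA alone it was at -0.40 and did not pass (adjusted p = 0.152). In control siRNA cells it was at -0.44 ± 0.20 (adjusted p = 0.0642), although 2 of its other probe sets fell there by 0.98 and 0.74. TNC, tenascin, fell by 0.36 ± 0.13 in NFYB siRNA cells and was at -0.09 ± 0.13 in control siRNA cells. SPARC did not pass in either arm.

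**Figure D5:**
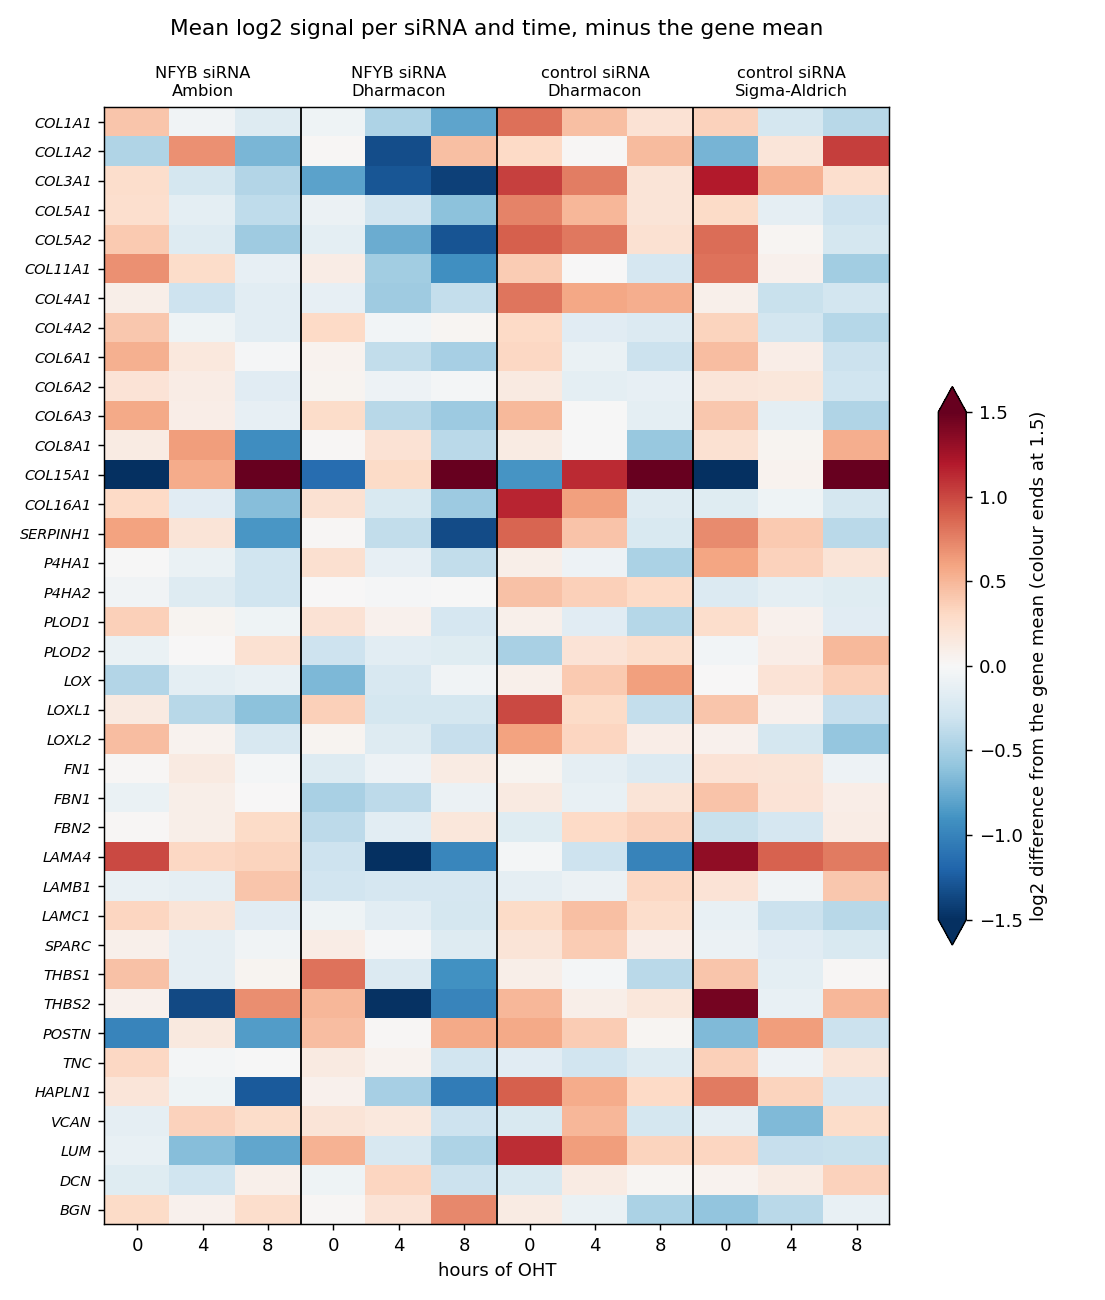
Mean log2 signal of each of the 38 genes (rows) for the 4 siRNAs at 0, 4 and 8 h of OHT (columns, n = 3 arrays each), as the difference from the mean of the gene over the 12 columns; the colour scale ends at 1.5. COL3A1 is lowest with the Dharmacon NFYB siRNA, and COL15A1 goes from low to high over the 8 h with each siRNA.

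Whether NFYB siRNA changed the response to OHT was tested as the difference of the 8 h responses between arms. By limma 0 of the 38 genes passed, against 0.293% of all genes. An unadjusted p under 0.05 was found for 6, and the share of all genes with such a p is not given here. The median difference was -0.0033, against -0.0073 over all genes. These 6 were HAPLN1 at -0.46 ± 0.22, PLOD2 at -0.41 ± 0.16, THBS1 at -0.62 ± 0.28, COL4A2 at 0.21 ± 0.09, LOXL1 at 0.38 ± 0.17 and FN1 at 0.40 ± 0.15 (adjusted p = 0.696, 0.556, 0.645, 0.602, 0.669 and 0.513). The other probe set was at -0.31 for HAPLN1, -0.30 for PLOD2 and -0.22 for COL4A2. The other probe sets lay between -0.28 and 0.45 for THBS1 and between -0.20 and 0.50 for FN1, and LOXL1 has 1 probe set. With the Dharmacon NFYB siRNA alone 5 genes passed, and with the Ambion NFYB siRNA alone 0, and all genes were not counted in these settings.

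Further matrix genes were counted in the same way. From 151 further matrix genes, 134 were measured, and 1 was higher and 6 lower with NFYB siRNA at 8 h, 5.22% in all, near the share of all genes. COL4A5, a basement membrane collagen, was at -0.89 ± 0.23 (limma adjusted p = 0.018). ADAMTS3, a procollagen N-proteinase, was at -0.44 ± 0.12 and SEC24D, a coat protein for export of procollagen from the endoplasmic reticulum, at -0.62 ± 0.18 (adjusted p = 0.0197 and 0.0408). CHSY1, a chondroitin synthase, and EFEMP2, a fibulin, were at -0.33 and -0.25. Of the regulators of TGF-beta signalling, SMAD7, which inhibits it, was higher (0.57 ± 0.13, adjusted p = 0.00442) and SMAD4, the common mediator, lower (-0.52 ± 0.15, adjusted p = 0.0305).

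With 8 h of OHT in control siRNA cells 23 of these 134 genes were higher and 44 lower, 50% in all, against 55.3% of all genes. FBLN5, a fibulin of elastic fibres, rose by 2.42 ± 0.11, ACAN, aggrecan, by 1.62 ± 0.14 and CHSY1 by 1.52 ± 0.07 on the log2 scale. CCN2, a matricellular target of TGF-beta, fell by 2.03 ± 0.14 and TGFB2, a TGF-beta ligand, by 1.96 ± 0.16. The integrin chains ITGB8 and ITGA5 fell by 2.33 ± 0.17 and 1.05 ± 0.12, whereas the integrin chain ITGAV rose by 0.88 ± 0.11. For the genes named the limma adjusted p lay between 4.15e-20 and 6.06e-09. SMAD3 rose by 0.98 ± 0.07 and TGIF1, a repressor of TGF-beta responses, fell by 2.35 ± 0.14.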

How the data were processed

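RNA of 36 cultures was hybridised to Affymetrix human expression arrays, and the authors computed MAS5 signals in Affymetrix Expression Console (version not given). The deposited values are linear intensities, scaled by the authors on each array. From 22277 probe sets 62 control probe sets were left out. Of the 22215 tested, 19064 name 1 gene, 1043 several and 2108 none in the platform annotation, whose symbols were updated through gene IDs. Probe sets with the ending _s_at or _x_at can also bind related transcripts. Signals on the log2 scale, with nothing added, entered a linear model (limma 3.58.1, R 4.3.3) of 6 groups (arm by time), or 12 (siRNA by time) between siRNAs, with a variance trend, two-sided tests and Benjamini-Hochberg adjustment over all probe sets. The fit was tested on simulated data. All measured genes of the list are named or counted, and up to 3 genes of each further matrix list were eligible by adjusted p. Sequences are shown for genes called lower with NFYB siRNA that had a window, and for the greatest OHT increase. Outside this rule, the CCAAT sites of COL4A1, COL4A2 and PLOD2 are shown for comparison. Motifs were searched in RefSeq windows of GRCh38.p14. The genes, lists and alternatives were chosen with earlier results of these data known. Other settings tried were 16 added to each signal, arrays brought to equal quantiles, only bright probe sets (upper 60%), no variance trend, only the groups compared, 12 groups throughout, a random block for siRNA, a fixed block for replicate number, every siRNA by itself, the mean of all probe sets, the unequal-variance test of the methods, a threshold on p and ratio after the study's and leaving out each array. Replicate numbers gave little sign of pairs, and the main test did not pair the arrays. No detection calls were used.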

Additional observations from a re-analysis of the deposited data

Results flagged for a closer look

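In COL3A1, COL5A2 and SERPINH1 the NFYB siRNAs differed from each other by a test of the difference. COL3A1 was 1.07, 1.02 and 0.962 higher on the log2 scale with the Ambion than with the Dharmacon siRNA at 0, 4 and 8 h (limma adjusted p = 5.2e-05, 9.8e-05 and 0.000261, n = 3 arrays each), COL5A2 0.539, 0.542 and 0.765 (0.0109, 0.0111 and 0.00037) and SERPINH1 0.581, 0.558 and 0.473 (6.24e-05, 0.000113 and 0.00098).

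In 14 of 228 groups of 6 arrays (6.14%) 1 array stood apart from the others by Dixon's criterion, which chance meets in about 1 group of 20. Low arrays at 0 h with the Ambion NFYB siRNA were P4HA1 at 420, POSTN at 0.529 and VCAN at 5.41 (replicate 1) and COL15A1 at 0.65 (replicate 2), where BGN was high at 47.3. Replicate 3 of the Dharmacon NFYB siRNA was low for COL5A1 at 355 at 4 h, and at 8 h low for LOXL2 at 766 and FBN1 at 122 and high for BGN at 76.5. With the Dharmacon control siRNA COL6A2 was high at 894 (replicate 2, 8 h) and LOXL1 at 882 (replicate 3, 4 h), and COL1A2 at 10.9 (replicate 3), LOXL1 at 390 and THBS2 at 6.38 (replicate 1) were low at 8 h.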

How the results depend on the processing

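Counts of changed matrix genes between arms depended on how the siRNAs were treated. All genes were not counted under these settings, so the counts cannot be read as particular to matrix genes. With siRNA as a random block FBN1 and LOXL1 at 0 h and COL4A2 at 8 h did not pass (limma adjusted p = 0.0686, 0.0604 and 0.0566). With siRNA by time as 12 groups, 11, 12 and 14 genes differed with NFYB siRNA at 0, 4 and 8 h, and 20 changed by 4 h of OHT with control siRNA. With the Dharmacon NFYB siRNA alone the counts were 16, 15 and 15, and 5 for the difference of responses, and with the Ambion NFYB siRNA alone 10 at 8 h. The Ambion siRNA alone did not give the calls of SERPINH1 at 0 and 4 h (adjusted p = 0.172 and 0.113), FBN1 at 0 h (0.156), HAPLN1 at 4 h (0.0658) or COL4A2 at 8 h (0.121). Against the Dharmacon control siRNA alone they were 16, 17 and 14, and 1 for the difference of responses, and against the Sigma-Aldrich control siRNA alone 11, 12 and 10, and 2. The unequal-variance test of the methods with Benjamini-Hochberg adjustment gave 1, 1 and 3. A threshold of unadjusted p under 0.001 in that test with a ratio of at least 1.3 or at most 0.7 gave 2, 0 and 3, without COL3A1 and COL5A2 at any time. It was set here on log2 signals of 6 against 6 arrays, which need not be how the study applied its own. For COL5A2 the study listed the other probe set, with limma adjusted p = 0.000138 at 8 h, against 0.00332 for the one used here. For COL3A1 the study's list includes the probe set used here. The cause was not tested. Each arm rests on 2 siRNAs, and p-values over its 6 arrays do not count the spread between siRNAs as such.

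Leaving out 1 array gave 4 to 7 genes at 0 h, 4 to 8 at 4 h and 5 to 7 at 8 h with NFYB siRNA, 11 to 14 and 21 to 23 for 4 and 8 h of OHT with control siRNA, 20 to 22 with NFYB siRNA, 0 for the difference of responses, 17 to 20 between the NFYB siRNAs and 18 to 23 between the control siRNAs. The count of 4 at 0 h came without replicate 2 of the Dharmacon NFYB siRNA, when COL5A2, SERPINH1 and FBN1 had adjusted p = 0.0543, 0.0982 and 0.0703 by limma. COL5A2 was also lost without replicate 3 of that siRNA (0.0565). SERPINH1 was lost at 0 h without each array of the Dharmacon NFYB siRNA or without replicates 1 or 2 of the Dharmacon control siRNA (0.0628 to 0.0982), and at 4 h without each array of the Dharmacon NFYB siRNA or replicate 3 of the Dharmacon control siRNA (0.0588 to 0.0978). LOXL1 was lost at 0 h without any array of the Dharmacon control siRNA or replicates 1 or 3 of the Ambion NFYB siRNA (0.0567 to 0.0839) and at 4 h without replicate 3 of the Dharmacon control siRNA (0.0515), and FBN1 at 0 h without replicates 1 or 2 of the Dharmacon NFYB siRNA or 2 or 3 of the Sigma-Aldrich control siRNA (0.0542 to 0.0703). COL4A2 at 8 h was lost without Sigma-Aldrich control replicate 1 or Dharmacon NFYB siRNA replicate 2 (0.0511 and 0.0557). With OHT in control siRNA cells, single arrays ended the calls of COL1A1, HAPLN1, LOX and FBN2 at 4 h and of COL16A1, FN1, LAMB1 and LUM at 8 h, and in NFYB siRNA cells those of COL3A1 and TNC (adjusted p at most 0.147).

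As the mean of all probe sets, calls with NFYB siRNA were lost for COL3A1 at all 3 times, LOX at 4 and 8 h, FBN1 at 0 h and COL4A2 at 8 h, those of 4 h of OHT with control siRNA for COL1A1 and LOX, those of 8 h for COL1A1, COL3A1, LOX (0.168) and FN1 (0.186), and that of TNC with NFYB siRNA. By the same mean COL6A1 turned to 0.0911 at 4 h in control siRNA cells and to 0.0596 at 8 h in NFYB siRNA cells, and LOXL2 to 0.00959 in NFYB siRNA cells and 0.159 in control siRNA cells at 8 h. The cause was not tested. Replicate numbers shared across groups gave little sign of pairs, though this check cannot exclude pairing. Of 198 same-number pairs 29 had deviations with r over 0.1 (median 0.009, highest 0.288). The median was -0.003 for pairs of different numbers, and 16 of 36 arrays correlated best with their own number. With the replicate block 7, 6 and 6 genes differed with NFYB siRNA at 0, 4 and 8 h. HAPLN1 at 0 and 8 h and SERPINH1 at 8 h passed under all 51 alternatives run for them.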
